A study of Mus musculus with 12 samples.

Results

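The 8 genes described here encode enzymes that make asparagine, proline and cysteine or act on aspartate, alanine or oxaloacetate: *Asns*, *Pycr1*, *Aldh18a1*, *Gpt2*, *Pck2*, *Cth*, *Cbs* and *Got1*. They were matched by symbol, and all 8 were found among the 54146 genes of the count files. RNA-seq gave their levels in mouse embryonic stem cells (mESCs) of C57BL/6 origin with the genotype Prdm10F/F; Rosa26-CreERT2, grown on gelatin in serum with LIF. In all 4 groups the cells carried the floxed *Prdm10* alleles and CreERT2, a Cre recombinase expressed from the Rosa26 locus that is active only when hydroxytamoxifen (OHT) binds its receptor part. Cells received 50 nM OHT for 24 h, which is meant to remove exon 5 of *Prdm10*, or the same volume of ethanol (EtOH), and were harvested at Day 2 or Day 4. The groups Day2_EtOH, Day2_OHT, Day4_EtOH and Day4_OHT held 3 libraries each. The general statistics notes of the study describe independent biological repeats, but the labels do not say for these libraries whether they came from separate cultures or from more than 1 cell line, and the p-values measure the spread between them.

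PRDM10 is a zinc finger transcription factor. Asparagine, proline and cysteine can be taken up from the medium or made inside the cell from aspartate, glutamate and methionine, by short pathways that draw on the tricarboxylic acid cycle and on the methionine cycle. Many enzymes of these pathways are known targets of ATF4, a transcription factor whose translation rises when amino acids run short or the endoplasmic reticulum is under stress. Embryonic stem cells divide fast and have a high demand for amino acids and nucleotides.

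The libraries held 35017667 to 41409992 expected counts, estimates by the program RSEM of the read pairs from each gene. The count of the targeted gene was examined first. The normalised count of *Prdm10* was 801 ± 29.4 (SD, n = 3) in Day2_EtOH and 2173 ± 80.3 (SD, n = 3) in Day2_OHT, and 869 ± 45.8 (SD, n = 3) in Day4_EtOH and 2012 ± 67.5 (SD, n = 3) in Day4_OHT. The whole-gene count was thus higher in the libraries labelled OHT (log2 fold change 1.44 and 1.21, adjusted p = 1.37e-105 and 4.32e-83, DESeq2), which goes against a simple loss of the transcript. A whole-gene count cannot show whether exon 5 was removed. The study reports that recombination in mESCs of this genotype was verified after induction in genomic DNA, transcript and protein. It describes the deletion as a frameshift that yields a truncated protein without function. The whole-gene counts do not repeat that check, so the libraries are called by their labels. A direction always refers to the OHT libraries relative to the EtOH libraries. All 8 mESC markers were present, at 26.1 to 1479 TPM (a level per transcript length, scaled to a fixed total) over the libraries. Of these markers, 3 of 8 were called lower and 1 higher at Day 2, beside 10.6% and 9.17% of all genes tested. Their median log2 fold change was -0.06, beside -0.03 over all genes. At Day 4, 0 were lower and 6 higher, beside 21.7% and 23.5%, with a median of 0.17 beside 0.01. The part of these markers in the values of the enzymes was not tested. The 7 fibroblast markers stayed at or below 2.84 TPM, with *Thy1* the highest, and the 9 markers of germ layers, primitive endoderm and trophectoderm at or below 0.58 TPM. On both days 6 of the 8 enzymes were lower in the libraries labelled OHT, and *Cbs* and *Got1* were not called.

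The promoters of the 8 genes were searched for the core of the element that ATF4 binds with C/EBP proteins. The RefSeq promoter table for GRCm38.p6, from 250 bases before to 50 after each start site, held 7 of the 8 genes and not *Cth*. The letters TGATGNAA were searched on both strands. They were found in 4 of the 7 promoters, those of *Asns*, *Pycr1*, *Pck2* and *Got1*, and in 1304 of all 32851 promoters (3.97%). The 30 bases around each match are printed 5′ to 3′ on the strand of the gene, with the match in capitals. They are printed because the same letters stand near the start sites of enzymes that were lower and of *Got1*, which was not called.
Asns: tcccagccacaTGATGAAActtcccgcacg
Pycr1: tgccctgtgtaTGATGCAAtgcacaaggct
Pck2: agccttcaaagTTACATCAgtatcttacag
Got1: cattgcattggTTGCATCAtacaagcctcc
The *Asns* window lies at chr6:7693214-7693243 on the minus strand, with its match beginning at position -23 from the RefSeq start site. In the GENCODE annotation this window lies inside the *Asns* gene, which reaches to 7693254. In *Pycr1* (chr11:120643833-120643862, minus strand) the match begins at -103. In *Pck2* (chr14:55540152-55540181, plus strand) and *Got1* (chr19:43524689-43524718, minus strand) the capitals are the reverse complement of the element and begin at -103 and -102. No match was found in the windows of *Aldh18a1*, *Gpt2* and *Cbs*, which says only that these letters are not there. A match is a description of the sequence and not of binding. None of the 8 genes was on the list of PRDM10-bound genes from the ChIP-seq of the study, while *Prdm10* itself was.

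The levels of the 8 genes were then compared per transcript length. *Asns*, asparagine synthetase, which forms asparagine from aspartate and glutamine, was the highest in every group, at 303 ± 9.04 TPM (SD, n = 3) in Day2_EtOH and 199 ± 0.836 TPM (SD, n = 3) in Day4_OHT. Its transcripts made up between 64.4% and 74.9% of the summed TPM of the 8 genes in a library. *Got1*, the cytosolic aspartate aminotransferase, ranked next in all 4 groups, at 43.0 ± 0.313 TPM (SD, n = 3) in Day2_EtOH and 49.7 ± 1.82 TPM (SD, n = 3) in Day4_OHT. *Aldh18a1* followed in each group, at 17.4 ± 0.771 TPM (SD, n = 3) in Day2_EtOH and 27.7 ± 0.531 TPM (SD, n = 3) in Day4_EtOH. These 3 genes kept their ranks and their libraries did not overlap with those of the next gene in any group.

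The order below them differed between the groups. In Day2_EtOH it was *Gpt2* (12.5 ± 0.687 TPM, SD, n = 3), *Pycr1*, *Cth*, *Pck2* and *Cbs* (4.74 ± 0.205 TPM, SD, n = 3), with no overlap between neighbours. In Day2_OHT the libraries of *Pycr1*, *Cth*, *Pck2* and *Cbs* overlapped from each gene to the next, so that their order is not resolved. In Day4_EtOH *Cth* (18.1 ± 1.44 TPM, SD, n = 3) and *Pck2* (11.8 ± 0.384 TPM, SD, n = 3) lay above *Pycr1* (7.91 ± 0.723 TPM, SD, n = 3), which overlapped with *Cbs* (7.11 ± 0.355 TPM, SD, n = 3). In Day4_OHT *Pck2* (4.84 ± 0.442 TPM, SD, n = 3) and *Pycr1* (4.13 ± 0.257 TPM, SD, n = 3) overlapped with each other and lay below *Cbs* (6.76 ± 0.0954 TPM, SD, n = 3), and *Cth* overlapped with *Gpt2*. *Cbs* was thus the lowest of the 8 in the other groups, without overlap in Day2_EtOH alone, and not the lowest in Day4_OHT.

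**Figure D1:**
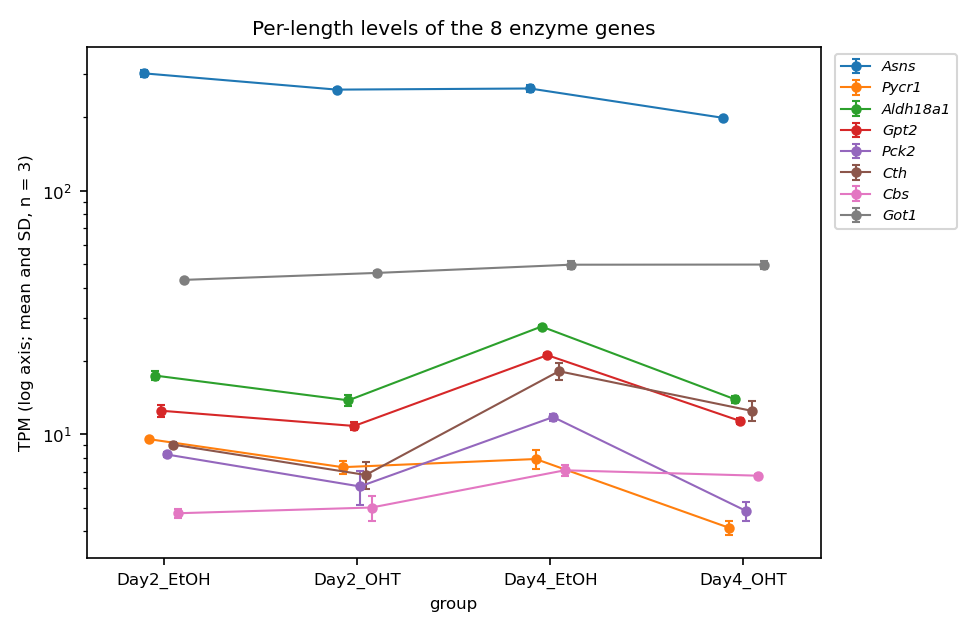
Mean TPM of each of the 8 enzyme genes (log axis) in the 4 groups, with bars for the SD over 3 libraries and lines that join the means of a gene. *Asns* and *Got1* lie above the rest throughout, and *Pck2* (4.84 TPM) and *Pycr1* (4.13 TPM) lie below *Cbs* (6.76 TPM) in Day4_OHT.

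At Day 2, the question was whether the enzymes already differed between the labels. Tested with DESeq2 over 11644 genes, 6 of the 8 were called lower and 0 higher, where a call needs a mean normalised count above 100 and a p, adjusted by Benjamini-Hochberg over all genes, below 0.05. Over all genes tested, 10.6% were called lower and 9.17% higher. The median log2 fold change of the 8 genes was -0.36, beside -0.03 over all genes tested. For 6 of the 8 all OHT libraries lay below all EtOH libraries, as they did for 26.9% of all genes tested. At Day 4, over 11555 genes, the same 6 enzymes were called lower and 0 higher, against 21.7% of all genes called lower and 23.5% higher. The median of the 8 was -0.75, beside 0.01 over all genes, and the 6 did not overlap between the labels, which held for 29.5% of all genes. The share of all genes called at Day 2 depended on single libraries, falling to 5.03% lower and 5.28% higher without Day2_EtOH replicate 1 and to 6.1% and 5.99% without Day2_EtOH replicate 2, and total counts as scaling gave 5.47% lower and 11.9% higher. The 6 enzymes were called lower in each of these.

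**Figure D2:**
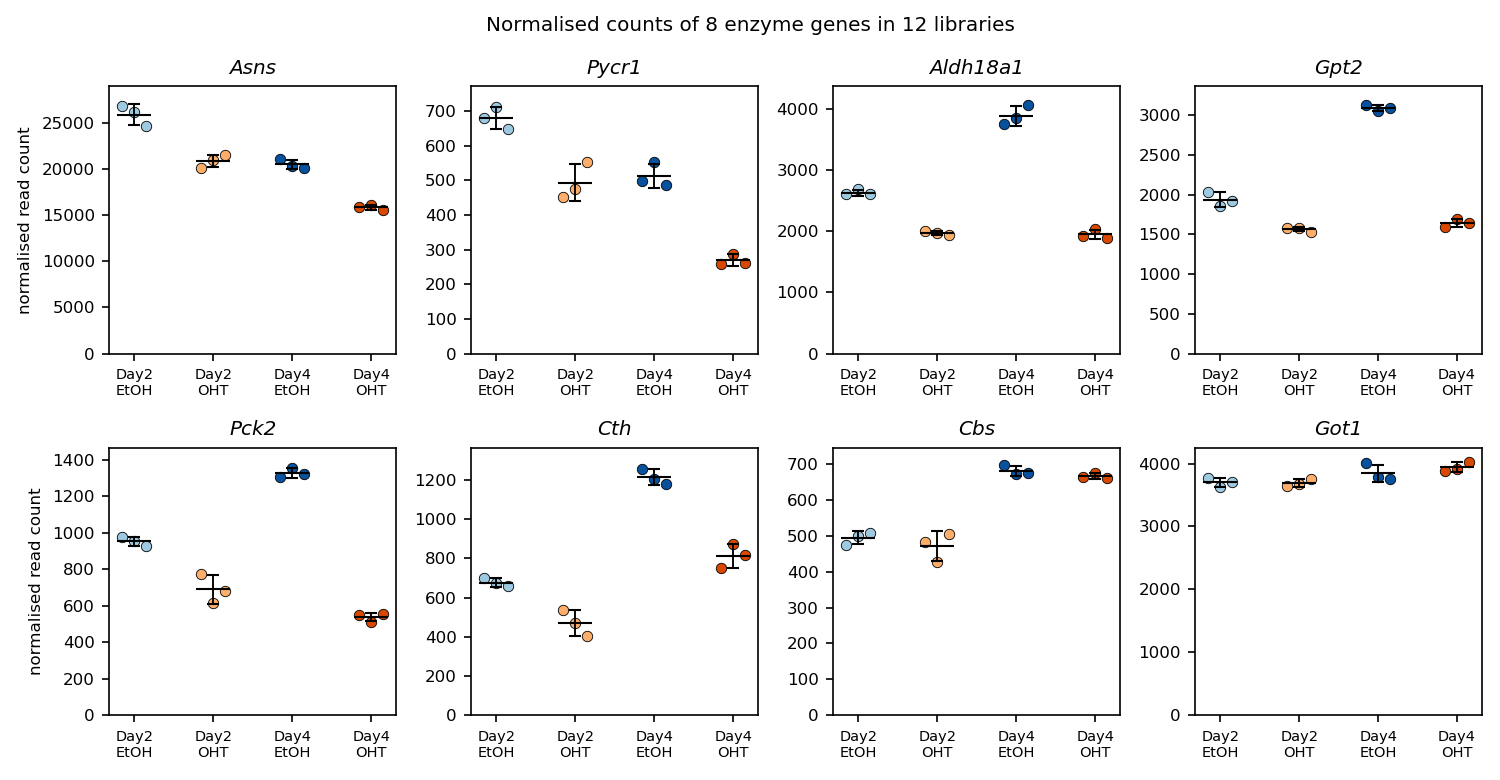
Normalised read count of each gene in each of the 12 libraries (points), with the mean and SD of the 3 libraries of a group (black). Points of the OHT groups lie below those of the EtOH groups of the same day for *Asns*, *Pycr1*, *Aldh18a1*, *Gpt2*, *Pck2* and *Cth*, and overlap with them for *Cbs* and *Got1*.

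*Asns* (chr6:7675169-7693254, minus strand, GRCm38) had normalised counts of 26873, 26154 and 24606 in Day2_EtOH and of 20138, 21020.2 and 21486 in Day2_OHT. At Day 4 they were 21073, 20282 and 20145 in EtOH and 15879, 16052 and 15556 in OHT. The OHT libraries were the lower ones on each day, and those of Day2_OHT reached about the level of Day4_EtOH. The log2 fold change was -0.31 (SE 0.04, adjusted p = 2.13e-11, DESeq2) at Day 2 and -0.38 (SE 0.03, adjusted p = 1.66e-34, DESeq2) at Day 4, so that OHT libraries held 80.7% and 77.1% of the EtOH level. The effect did not differ detectably between the days (difference -0.06, 95% interval -0.16 to 0.04, adjusted p = 0.424, DESeq2).

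Proline is made from glutamate, which *Aldh18a1*, pyrroline-5-carboxylate synthase, converts to the intermediate that *Pycr1*, a mitochondrial pyrroline-5-carboxylate reductase, then reduces to proline. *Aldh18a1* (chr19:40550257-40588463, minus strand) had normalised counts of 2605, 2687 and 2603 in Day2_EtOH, of 1995, 1978 and 1930.1 in Day2_OHT, of 3748, 3845 and 4057 in Day4_EtOH and of 1923, 2037 and 1885 in Day4_OHT. The Day4_EtOH libraries were the highest and the 6 OHT libraries lay within a narrow range. Its log2 fold change was -0.42 (SE 0.05, adjusted p = 1.53e-13, DESeq2) at Day 2 and -0.998 (SE 0.05, adjusted p = 2.17e-90, DESeq2) at Day 4, where OHT libraries held 50.1% of the EtOH level.

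*Pycr1* (chr11:120635712-120643769, minus strand) had the single lowest count over the 8 genes and 12 libraries, although *Cbs* was lower in Day2_EtOH. Its normalised counts were 680.1, 713 and 649 in Day2_EtOH and 451, 476 and 553 in Day2_OHT. At Day 4 they were 498, 553 and 487 in EtOH and 259, 289 and 260.4 in OHT. All OHT libraries were below the EtOH libraries of their day, and the Day4_OHT libraries were the lowest of the 12. The log2 fold change was -0.47 (SE 0.10, adjusted p = 3.78e-05, DESeq2) at Day 2 and -0.93 (SE 0.11, adjusted p = 1.44e-16, DESeq2) at Day 4, which is 72.4% and 52.4% of the EtOH level.

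*Gpt2*, the mitochondrial alanine aminotransferase, which links alanine and pyruvate to glutamate and 2-oxoglutarate, lies at chr8:85492576-85527560 on the plus strand. Its normalised counts were 2035, 1850.3 and 1925 in Day2_EtOH, 1574, 1583 and 1534 in Day2_OHT, 3126, 3051 and 3089 in Day4_EtOH and 1593, 1699 and 1646 in Day4_OHT. As with *Aldh18a1*, the Day4_EtOH libraries stood above the other 3 groups. The log2 fold change was -0.31 (SE 0.06, adjusted p = 8.84e-06, DESeq2) at Day 2 and -0.91 (SE 0.05, adjusted p = 1.75e-78, DESeq2) at Day 4, or 80.8% and 53.2% of the EtOH level.

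*Pck2*, the mitochondrial phosphoenolpyruvate carboxykinase, which turns oxaloacetate into phosphoenolpyruvate, showed the largest Day 4 difference of the 8 genes. It lies at chr14:55540266-55551242 on the plus strand. Its normalised counts were 975, 952 and 927 in Day2_EtOH and 774, 616 and 679.7 in Day2_OHT, and 1304, 1355 and 1320.2 in Day4_EtOH and 549.8, 512 and 554 in Day4_OHT. The highest libraries were those of Day4_EtOH and the lowest those of Day4_OHT, with no overlap on either day. The log2 fold change was -0.46 (SE 0.09, adjusted p = 4.36e-06, DESeq2) at Day 2 and -1.30 (SE 0.07, adjusted p = 1.84e-72, DESeq2) at Day 4, where OHT libraries held 40.6% of the EtOH level. It was past 2-fold, a size at which 0.952% of all genes were called lower at Day 4, in this fit and in all 14 alternatives, while *Aldh18a1* lay just short of it in this fit and past it in 7 of the 14.

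In transsulfuration, *Cbs*, cystathionine beta-synthase, joins homocysteine and serine, and *Cth*, cystathionine gamma-lyase, splits the product to release cysteine. These successive enzymes behaved differently. *Cth* (chr3:157894248-157925077, minus strand) had normalised counts of 699, 672 and 658 in Day2_EtOH, of 536, 472 and 402 in Day2_OHT, of 1258, 1206 and 1179 in Day4_EtOH and of 751, 873 and 816 in Day4_OHT. The OHT libraries were below the EtOH libraries of the same day, and those of Day4_OHT were above those of Day2_EtOH. The log2 fold change of *Cth* was -0.52 (SE 0.10, adjusted p = 1.07e-05, DESeq2) at Day 2 and -0.58 (SE 0.07, adjusted p = 1.18e-14, DESeq2) at Day 4, or 69.6% and 66.9% of the EtOH level.

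*Cbs* (chr17:31608894-31637238, minus strand) had normalised counts of 474, 501 and 509 in Day2_EtOH and of 482, 427 and 506 in Day2_OHT. At Day 4 they were 698, 673 and 675 in EtOH and 664, 676 and 661 in OHT. The labels overlapped on both days, while every Day 4 library lay above every Day 2 library. The log2 fold change was -0.07 (95% interval -0.26 to 0.13, adjusted p = 0.733, DESeq2) at Day 2 and -0.03 (95% interval -0.19 to 0.12, adjusted p = 0.804, DESeq2) at Day 4. These intervals do not reach the *Cth* estimates of the same days, but the difference between the genes was not tested.

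*Got1* (chr19:43499752-43524605, minus strand) had normalised counts of 3769, 3626 and 3713 in Day2_EtOH, of 3639.5, 3679 and 3758 in Day2_OHT, of 4002, 3785 and 3757 in Day4_EtOH and of 3881, 3921 and 4033 in Day4_OHT. Libraries of the labels overlapped on both days. Its log2 fold change was -0.0035 (95% interval -0.09 to 0.09, adjusted p = 0.978, DESeq2) at Day 2 and 0.03 (95% interval -0.05 to 0.12, adjusted p = 0.589, DESeq2) at Day 4. No change of *Got1* between the labels was detectable in these counts. A difference the size of those of the other 6 genes would lie outside both intervals. In TPM, which is scaled otherwise, the Day2_OHT libraries (45.43 to 46.79) lay above those of Day2_EtOH (42.69 to 43.3). The labels overlapped in TPM at Day 4.

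**Figure D3:**
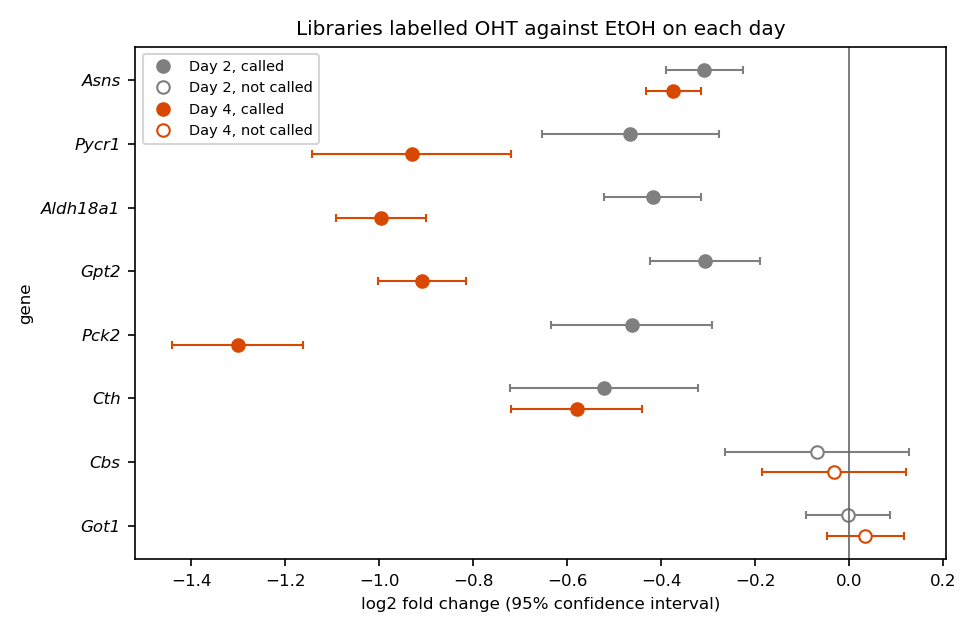
Log2 fold change of the libraries labelled OHT against EtOH for each gene at Day 2 (grey) and Day 4 (orange), with 95% confidence intervals from DESeq2; filled points were called. The Day 4 values of *Pycr1* (-0.93), *Aldh18a1* (-0.998), *Gpt2* (-0.91) and *Pck2* (-1.30) lie left of their Day 2 values, while *Asns* and *Cth* nearly keep theirs and *Cbs* and *Got1* stay at 0.

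The reads of the 8 genes were not shared with other genes by RSEM, whose posterior SD of the count was 0 in every library. Annotated genes overlap 3 of them: the processed pseudogene *Gm15801* within *Aldh18a1* on the same strand, *Gm43314* within *Cth* on the same strand, and *Gm10876* on the opposite strand of *Pck2*. These reached at most 62.95, 13 and 3 expected counts in a library, beside at least 1772, 369 and 518 for the enzymes.

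Whether the difference between the labels itself changed from Day 2 to Day 4 was tested by a treatment-by-day interaction term fitted to the 12 libraries. It grew for 4 of the 8 genes: *Pck2* by -0.83 (SE 0.11, adjusted p = 3.38e-13, DESeq2), *Gpt2* by -0.60 (SE 0.07, adjusted p = 2.56e-17, DESeq2), *Aldh18a1* by -0.58 (SE 0.06, adjusted p = 2.56e-17, DESeq2) and *Pycr1* by -0.46 (SE 0.13, adjusted p = 0.00399, DESeq2) on the log2 scale. Over all 11616 genes tested, 13.6% were called lower in this test and 18.7% higher, and 18.1% and 14.3% with total counts as scaling. For *Cth* the change was -0.05 (95% interval -0.29 to 0.18, adjusted p = 0.813, DESeq2) and for *Cbs* 0.04 (95% interval -0.17 to 0.25, adjusted p = 0.859, DESeq2). The interval of *Got1* ran from -0.06 to 0.14 (adjusted p = 0.652, DESeq2).

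The days were then compared within each label, to see which groups carry this growth. These comparisons share their libraries with those above. In the EtOH libraries 5 of the 8 genes were higher at Day 4 and 2 were lower, beside 20.6% and 20.5% of all genes called. *Cth* rose most, by 0.84 (SE 0.07, adjusted p = 1.18e-29, DESeq2), which is 179% of its Day 2 level. *Gpt2* rose by 0.67 (SE 0.05, adjusted p = 3.91e-37, DESeq2), *Aldh18a1* by 0.56 (SE 0.05, adjusted p = 1.65e-29, DESeq2), *Pck2* by 0.48 (SE 0.07, adjusted p = 7.18e-12, DESeq2) and *Cbs* by 0.46 (SE 0.09, adjusted p = 1.24e-06, DESeq2). *Pycr1* (-0.41, SE 0.09, adjusted p = 4.21e-05, DESeq2) and *Asns* (-0.34, SE 0.04, adjusted p = 1.08e-17, DESeq2) fell, and *Got1* was not called (0.05, 95% interval -0.03 to 0.14, adjusted p = 0.406, DESeq2).

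In the OHT libraries 2 of the 8 were higher at Day 4 and 3 were lower, beside 30.7% and 22.9% of all genes called. *Cth* (0.79, SE 0.10, adjusted p = 6.78e-14, DESeq2) and *Cbs* (0.50, SE 0.09, adjusted p = 2.48e-07, DESeq2) rose by about as much as in EtOH. *Aldh18a1* (-0.01, 95% interval -0.12 to 0.09, adjusted p = 0.901, DESeq2) and *Gpt2* (0.08, 95% interval -0.04 to 0.19, adjusted p = 0.32, DESeq2) were not called, and *Pck2*, which rose in EtOH, fell by 0.35 on the log2 scale (SE 0.10, adjusted p = 0.000949, DESeq2). *Pycr1* fell further than in EtOH, to 54.7% of its Day 2 level (log2 fold change -0.87, SE 0.11, adjusted p = 3.93e-13, DESeq2), and *Asns* fell by 0.40 on the log2 scale (SE 0.04, adjusted p = 6.56e-28, DESeq2). *Got1* lay at the edge (0.10, 95% interval 0.02 to 0.18, adjusted p = 0.0538, DESeq2). The 8 genes thus fall into 4 patterns: a rise over the days seen in EtOH only or turned into a fall (*Aldh18a1*, *Gpt2*, *Pck2*), a rise under both labels (*Cth*, *Cbs*), a fall under both (*Asns*, *Pycr1*) and no call (*Got1*). Time after treatment cannot be told apart from other differences between the harvests of the days.

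**Figure D4:**
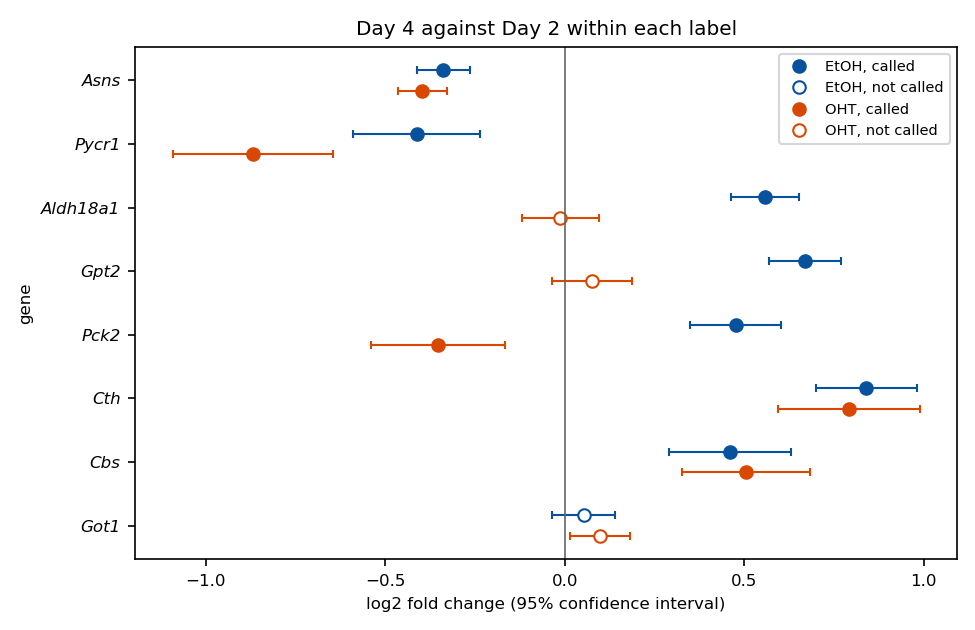
Log2 fold change of Day 4 against Day 2 within the EtOH libraries (blue) and within the OHT libraries (orange), with 95% confidence intervals from DESeq2; filled points were called. *Pck2* lies at 0.48 in EtOH and -0.35 in OHT, *Aldh18a1* and *Gpt2* lie right of 0 in EtOH only, and *Cth* and *Cbs* lie at nearly the same place in both.

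The enzymes on either side of the 8 in their pathways were counted list by list. Whether a list differed from all genes or from another list was not tested. Of 13 other enzymes of aspartate, asparagine, glutamate and alanine tested at Day 4 (14 listed), 1 was lower and 5 were higher, with a median log2 fold change of 0.18. For this list and those that follow, the Day 4 values over all genes were 21.7% lower, 23.5% higher and a median of 0.01, and the Day 2 values 10.6%, 9.17% and -0.03. The largest increases were those of *Ass1*, argininosuccinate synthase, which joins citrulline to aspartate (0.43, SE 0.04, adjusted p = 1.28e-30, DESeq2), *Aspg*, an asparaginase (0.38, SE 0.14, adjusted p = 0.0288, DESeq2), and *Asl*, argininosuccinate lyase (0.33, SE 0.08, adjusted p = 0.000151, DESeq2). The call of *Aspg* was lost with the effective lengths as offsets, where the log2 fold change was 0.12, and without Day4_EtOH replicate 2 or 3 or any Day4_OHT library, where it was 0.35 to 0.39. The replicate block also ended it, at 0.38. At Day 2 the list had 1 lower and 1 higher gene of 12.

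Of 7 other enzymes of proline, ornithine and arginine tested at Day 4 (10 listed), 4 were lower and 1 was higher, with a median of -0.22. At Day 2, 3 of 7 were lower and 0 higher, with a median of -0.09. Among these 3, the call of *Odc1* did not hold in every alternative. *Aldh4a1*, which oxidises pyrroline-5-carboxylate to glutamate in proline breakdown, had the largest difference (-0.86 at Day 2, SE 0.06, adjusted p = 5.96e-38, DESeq2, and -1.15 at Day 4, SE 0.07, adjusted p = 2.5e-64, DESeq2). It is on the study's list of PRDM10-bound genes. *Pycrl*, a further pyrroline-5-carboxylate reductase, was lower at Day 4 (-0.46, SE 0.06, adjusted p = 7.05e-12, DESeq2) but not called at Day 2 (-0.07, adjusted p = 0.583, DESeq2), and *Prodh*, proline dehydrogenase, was higher at Day 4 (0.36, SE 0.07, adjusted p = 9.78e-07, DESeq2).

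Upstream of transsulfuration, 2 of 7 methionine cycle enzymes tested at Day 4 (11 listed) were lower and 0 higher, with a median of 0.01. They were *Mat2a*, which makes S-adenosylmethionine (-0.24, SE 0.03, adjusted p = 3.98e-13, DESeq2), also on the PRDM10-bound list, and *Mtrr*, methionine synthase reductase (-0.20, SE 0.05, adjusted p = 0.000336, DESeq2), whose call was lost with the effective lengths as offsets. Downstream, 5 of 13 enzymes of cysteine, sulfide and glutathione (14 listed) were lower at Day 4 and 2 were higher, with a median of -0.16. At Day 2, 6 of 13 were lower and 2 higher, with a median of -0.22. The sulfurtransferases *Mpst* (-2.96 at Day 2 and -5.61 at Day 4, SE 0.14 and 0.28, adjusted p = 1.56e-90 and 8.9e-87, DESeq2) and *Tst* (-0.73 and -1.53, SE 0.09 and 0.11, adjusted p = 1.66e-12 and 3.03e-44, DESeq2) are both on the PRDM10-bound list. The normalised count of *Mpst* was 9.3 to 11.9 in Day4_OHT, near the floor, beside 472 to 546 in Day4_EtOH. It passed the minimum mean through the EtOH libraries, and the size of its Day 4 difference is loosely fixed. *Chac1*, which degrades glutathione, went from -0.50 (SE 0.17, adjusted p = 0.0227, DESeq2) at Day 2 to -2.71 (SE 0.16, adjusted p = 3.47e-65, DESeq2) at Day 4. Its Day 2 call was lost without Day2_EtOH replicate 1 or 3 or Day2_OHT replicate 2 (-0.40, -0.48 and -0.36), and also with the replicate block (-0.51), with the length trend removed (-0.46) and with both (-0.46).

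Around *Pck2* and *Got1*, of 11 enzymes and carriers of oxaloacetate, malate and phosphoenolpyruvate tested at Day 4 (17 listed), 2 were lower and 4 higher, with a median of -0.01. The largest of these differences were small: the aspartate-glutamate carrier *Slc25a12* at -0.31 (SE 0.05, adjusted p = 2.06e-08, DESeq2), the pyruvate kinase *Pkm* at 0.27 (SE 0.03, adjusted p = 6.86e-25, DESeq2) and the oxoglutarate carrier *Slc25a11* at 0.27 (SE 0.05, adjusted p = 2.63e-08, DESeq2). None of the 3 was called at Day 2.

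Of 14 tested genes for ATF4 and factors that act with or through it (15 listed), 5 were lower at Day 2 and 0 higher, and 7 were lower at Day 4 and 3 higher, with a Day 4 median of -0.12. Of the 5 Day 2 calls, those of *Nupr1* and *Trib3* were lost without any single Day 2 library other than Day2_OHT replicate 3 (log2 fold changes of -0.41 to -0.32 and of -0.27 to -0.23). Both calls were also lost with total counts as scaling, with the replicate block, with the length trend removed and with block and trend together. That of *Nupr1* was lost with TMM scaling too, and that of *Trib3* with the effective lengths as offsets. *Nupr1*, a stress-induced nuclear protein (-2.24, SE 0.15, adjusted p = 3.14e-46, DESeq2), *Trib3*, a pseudokinase that restrains ATF4 (-1.17, SE 0.08, adjusted p = 3.16e-49, DESeq2), and *Atf5*, a related factor (-0.65, SE 0.17, adjusted p = 0.000996, DESeq2), had the largest Day 4 differences. *Atf4* itself, named here after its values were seen, had normalised counts of 10461, 10356 and 10277 in Day4_EtOH and of 6885, 6849.9 and 6651 in Day4_OHT, with a log2 fold change of -0.18 (SE 0.05, adjusted p = 0.00288, DESeq2) at Day 2 and -0.61 (SE 0.03, adjusted p = 1.69e-79, DESeq2) at Day 4. Without Day2_OHT replicate 2 the Day 2 value was -0.15 and was not called. The same held with the replicate block and the length trend removed together, where it was -0.14. The part of *Atf4* in the values of the 8 enzymes was not tested. *Ddit3*, also named after its values were seen, was higher at Day 4 (0.40, SE 0.15, adjusted p = 0.0246, DESeq2). Its call was lost when any Day 4 library was left out (0.35 to 0.44). The effective lengths as offsets (0.40), the replicate block (0.41), and that block with the length trend removed (0.41) also ended it.

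**Figure D5:**
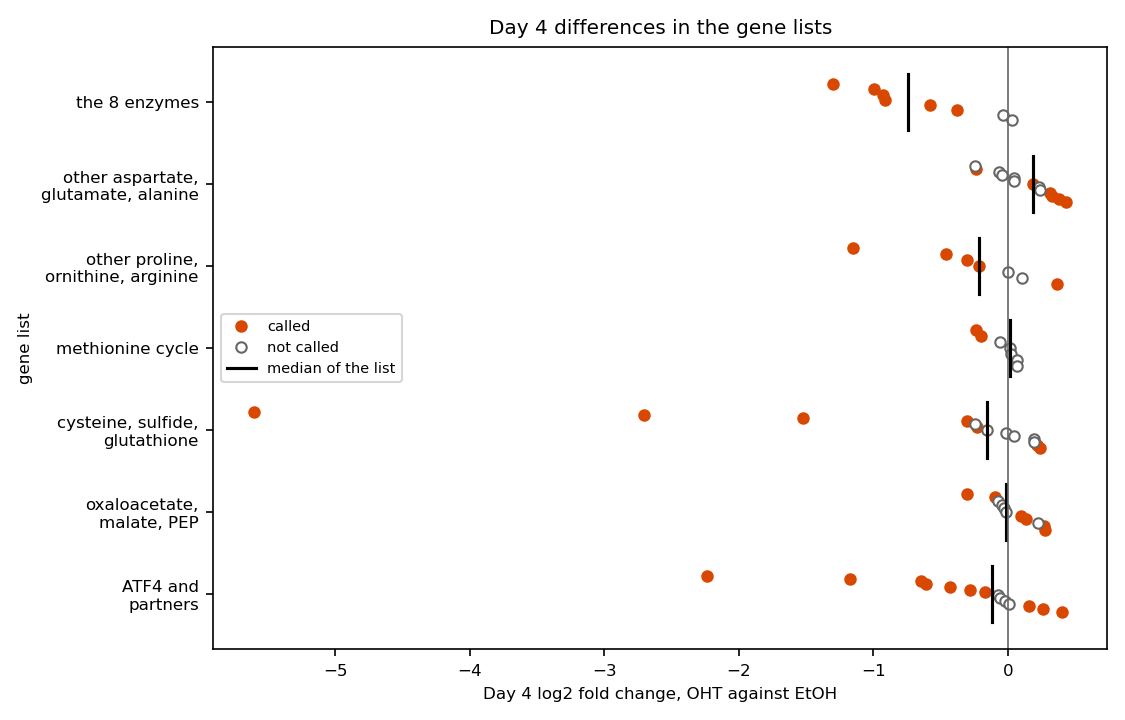
Day 4 log2 fold change, OHT against EtOH, of every tested gene in the list of 8 and in the 6 neighbouring lists; orange points were called, open points were not, and the black bar is the median of a list. The median of the 8 enzymes is -0.75 and those of the other lists lie between -0.22 and 0.18. *Mpst*, with counts near the floor in Day4_OHT, is the lowest point at -5.61.

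To name genes of similar pattern, the mean of the standardised profiles of the 8 genes was correlated with every gene over the 12 libraries. These libraries fall into 4 groups and are not independent points. Each of the 8 genes is part of this mean, which raises its own r. Of the 8, *Gpt2* and *Aldh18a1* (Pearson r = 0.97 for each) and *Pck2* (0.91) followed this mean most closely, then *Cth* (0.82). *Cbs* (0.49), *Pycr1* (0.41), *Asns* (0.31) and *Got1* (0.19) did so loosely. Among 11608 genes, the 6 non-members most like it, on log2(normalised count + 1), were *Aars*, *Mrpl20*, *Yars*, *Heatr3*, *Lars* and *Odc1* (r from 0.981 to 0.985). *Aars*, *Yars* and *Lars* encode cytosolic tRNA synthetases, *Mrpl20* a mitochondrial ribosomal protein, and *Odc1* ornithine decarboxylase, while *Lars* is on the PRDM10-bound list. With log2(TPM + 1) only 1 of these 6 was again among the 6 most alike, so the names are loosely fixed.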

How the data were processed

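RNA-seq libraries were made from total RNA with a stranded kit and sequenced as read pairs. The authors aligned reads with STAR (version 2.6.0c) to GRCm38.p6, and RSEM estimated the deposited expected counts per GENCODE vM18 gene, library by library. The deposited TPM values come from the same step and were used for levels only. The deposited tables of fold changes and p-values from the authors' DESeq2 (version 1.22.2) gave symbols only, and none of their values were used. The effective length and posterior SD columns were read as RSEM gives them.

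Rounded expected counts were compared in R 4.3.3 by DESeq2 (version 1.42.0; Wald test, median-of-ratios size factors, fitted across all genes), per day on 6 libraries, and for the interaction on 12. Called genes had a mean normalised count above 100 and an adjusted p below 0.05. Printed counts per library were scaled over all 12 libraries. Alternatives were edgeR (version 4.0.16), TMM or total-count scaling, effective-length offsets, removal of each library's trend on gene length (loess), a replicate block, 1 fit of all libraries, no minimum mean and each library left out. The fits were tested on simulated data. Symbols and GENCODE vM21 positions on GRCm38 were found for 54079 of 54146 genes, all 8 included.

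The 8 genes and the lists of neighbouring enzymes and markers were chosen with earlier results of these data known. From each list were named the 3 called genes with the largest Day 4 change and any called gene past 2-fold, beside the 8 genes, *Prdm10* and the 6 genes of the most similar profile. The RNA is bulk, where fewer cells of a type and less RNA per cell cannot be told apart. Read pairs were not counted by molecular identifiers, so the SD over libraries is the measure of error. A further gene is not reported here.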

Additional observations from a re-analysis of the deposited data

Results flagged for a closer look

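The effect of OHT differed between the days (interaction test in DESeq2, adjusted p below 0.05) for these genes named above, given as the Day 4 minus the Day 2 log2 fold change. Among the 8 enzymes these were *Pck2* (-0.83), *Gpt2* (-0.60), *Aldh18a1* (-0.58) and *Pycr1* (-0.46). Among the neighbouring enzymes the difference was lower at Day 4 for *Mpst* (-2.64), *Chac1* (-2.20), *Tst* (-0.80), *Pycrl* (-0.39), *Aldh4a1* (-0.28) and *Slc25a12* (-0.28), and higher for *Asl* (0.38), *Pkm* (0.33), *Prodh* (0.27), *Slc25a11* (0.25) and *Ass1* (0.16). For *Prdm10* it was -0.23. Among *Atf4* and its partners it was lower for *Nupr1* (-1.87), *Trib3* (-0.92), *Atf5* (-0.58) and *Atf4* itself (-0.42) and higher for *Ddit3* (0.57). Among the genes of similar profile it was lower for *Yars* (-0.36), *Aars* (-0.26), *Heatr3* (-0.19), *Mrpl20* (-0.14) and *Odc1* (-0.12). These last genes were picked for their likeness to the 8 enzymes in the same libraries, and that choice favours a lower value. The neighbouring enzymes and *Atf4* partners were picked for a large Day 4 change or named after their values were seen. Their calls here are thus no separate support. The values for *Atf5*, *Mrpl20*, *Prodh*, *Ass1* and *Prdm10* lost their call in at least 1 alternative.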

How the results depend on the processing

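All calls of the 8 enzymes held in each alternative run for their comparison. The length trend was removed only for OHT against EtOH on each day, and the fit of all libraries applies to all but the interaction, which uses them already. Of their 552 recomputed log2 fold changes 549 kept their side of the threshold, and the other 3 were those of *Got1* for Day 4 against Day 2 in OHT, which was called with edgeR (0.09), with all 12 libraries in 1 fit (0.10) and without Day2_OHT replicate 3 (0.11). With each library left out, the number of the 8 called stayed at 6 at Day 2 (6 to 6) and Day 4 (6 to 6), at 4 for the interaction (4 to 4), at 7 in EtOH (7 to 7), and was 5 to 6 in OHT. With the replicate number as a block 6 enzymes were called on each day, and 5.66% of all genes were called lower and 5.65% higher at Day 2. Same-numbered libraries deviated together with correlations from -0.38 to 0.28 and were best matched to their own number in 5 of 36 cases. These values show no pairing by number, but the labels do not say whether same-numbered libraries were handled together. Of 1170 values for the other named genes, chosen for recomputation after seeing the data, 111 lost their call and 6 gained it; those that lost it at Day 2 were of *Nupr1*, *Trib3*, *Chac1*, *Heatr3*, *Mrpl20*, *Odc1*, *Mat2a* and *Atf4*, and at Day 4 of *Aspg*, *Mtrr* and *Ddit3*. With log2(TPM + 1), 1 of the 6 genes of most similar profile was shared. No alternative moved the median log2 fold change of all genes by more than 0.05. Depth limits none of the 8, whose lowest count was 262 (*Pycr1*), but 3 libraries per group limit the intervals of *Cbs* and *Got1*.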
